A study of Homo sapiens with 16 samples.

Results

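The late state of human pancreatic progenitors after 24 h of latrunculin B was compared with progenitors kept for the same 24 h in the vehicle DMSO, across all expressed genes. The comparison rests on 5 of the 16 libraries of the series, 3 labelled latrunculin B 24 h and 2 labelled control 24 h, chosen by their titles, and it is the one drug comparison in the series with a control of the same age. Latrunculin B, a small molecule that binds actin monomers and so depolymerises the actin cytoskeleton, was given at 0.5 µM on day 19 of differentiation. The other 11 libraries hold 3 controls taken at 0 h, 3 libraries each at 3 h and 6 h of the drug, and 2 at 12 h. Every group comes from the same SA121-derived human embryonic stem cell line with the genotype NGN3-GFP, in which a green fluorescent protein reports the gene NEUROG3, so all groups carry the reporter and no second line was sequenced. The control at 0 h is tagged DMSO in its label and was harvested before treatment according to the series text. Polyadenylated RNA of whole cultures was sequenced, so in what follows fewer cells of a type and less RNA per cell cannot be told apart.

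In the developing pancreas, multipotent progenitors that express PDX1, NKX6-1 and SOX9 give rise to acinar, duct and endocrine cells. The transcription factor NEUROG3 starts the endocrine programme and switches on INSM1, NEUROD1, NKX2-2 and PAX4, while Notch signalling between neighbouring cells holds it back through HES1. Actin filaments feed into transcription by more than 1 route. The co-activators YAP and TAZ enter the nucleus of cells under tension and act through TEAD factors, and the MRTF co-activators of SRF are kept inactive by free actin monomers. Latrunculin keeps the monomer in a complex, which lowers both outputs, and lower YAP activity has been linked to endocrine fate in this tissue.

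The 5 libraries held from 28745365 to 32224335 estimated reads, and between 15577 and 15880 genes had at least 10 reads. On the first principal component of the 5 libraries, which held 54.6% of the variance in log2 CPM (read counts put on a common library size), the controls lay at 54.5 and 45.8 and the latrunculin B libraries at -23.4 (replicate 1), -38.0 and -38.9. Pearson correlations of log2 CPM across genes were 0.985 between the controls, 0.980 to 0.985 among the latrunculin B libraries and 0.962 to 0.970 between the groups. Genes are not independent replicates, and these values are descriptions. The share of reads assigned to transcripts annotated as retaining an intron was 5.16% and 4.10% in the control libraries and 3.45%, 3.42% and 3.20% in the latrunculin B libraries. The labels do not say that replicates came from separate cultures, so p-values measure the spread between these libraries, which may be technical.

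The labelled cell type was checked against its markers. In the control libraries PDX1, a master factor of the pancreas, stood at 316 and 317 CPM, NKX6-1 at 91.2 and 103 CPM, SOX9 at 430.3 and 426 CPM and GP2, a surface protein of pancreatic progenitors, at 1392 and 1381 CPM. PTF1A, which marks multipotent and acinar progenitors, was at 0.136 and 0.188 CPM and so close to 0. The endocrine starter NEUROG3 stood at 2.07 and 2.35 CPM. Later endocrine transcripts were also found, with the granin CHGA at 60.9 and 50.4 CPM and the hormone SST at 16.9 and 14.3 CPM. Other endocrine markers were low in the controls, INSM1 at 3.39 and 2.97 CPM and NKX2-2 at 1.15 and 1.38 CPM. NEUROD1 and INS, given below, were low there too.

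Of 16705 genes tested, 6809 were called at an adjusted p under 0.05 (edgeR quasi-likelihood test, Benjamini-Hochberg adjustment over all genes), which is 40.8% of the genes. Higher with latrunculin B were 3661 genes (21.9%) and lower were 3148 (18.8%), and these shares are the background for every gene group below. The median log2 fold change over all genes tested was 0.01. By the median, falls were larger than rises: the median size among called genes was 0.60 for falls and 0.39 for rises on the log2 scale. A log2 change of 1 or more was reached by 762 falls and 451 rises, and of 2 or more by 145 falls and 127 rises. At 3 or more the order turned, with 34 falls and 53 rises. Of the genes tested, 118 had no read in any library of 1 of the groups, 17 of them called, and their fitted fold changes are no measure of size. The libraries of the groups did not overlap in 10674 genes, or 63.9%. Among called genes this held for 3655 of the 3661 rises and 3138 of the 3148 falls. Lack of overlap in a called gene below is therefore a description and adds almost nothing to its call. Leaving out control replicate 1 lowered the count of calls to 4034, and every other omission of a library left at least 5434.

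**Figure D1:**
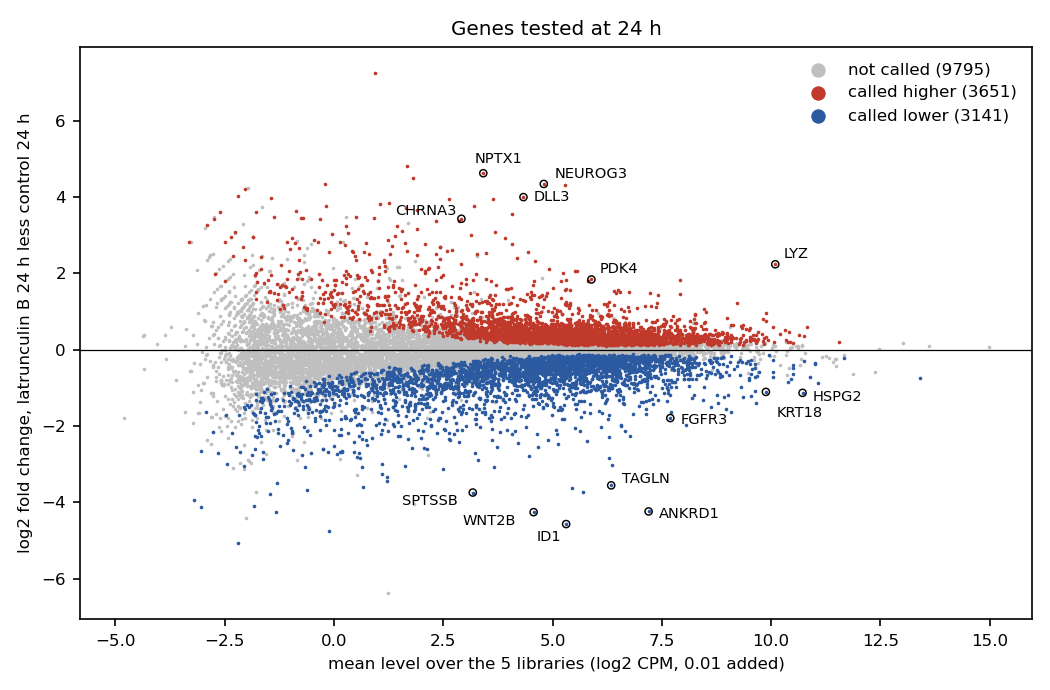
Log2 fold change at 24 h (vertical axis) against the mean level over the 5 libraries (horizontal axis, log2 CPM) for the 16587 genes with reads in both groups, each point a gene. Genes called higher are red, genes called lower blue and genes not called grey, with 14 genes ringed and named, among them NPTX1 at 4.62 and ID1 at -4.57.

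The 12 largest rises included NEUROG3 and several of the factors it is known to switch on. NPTX1, a secreted neuronal pentraxin, stood at 0.576 and 0.814 CPM in the control libraries and 10.2, 23.1 and 18.6 CPM with latrunculin B, a log2 fold change of 4.62 (SE 0.47, adjusted p 1.05e-05). NEUROG3 (chromosome 10, 69571698 to 69573422 on GRCh38) stood at 2.07 and 2.35 CPM against 25.6, 59.8 and 49.5 CPM, a change of 4.34 (SE 0.42). In both genes replicate 1 was the lowest latrunculin B library. The choice of the 12 required all latrunculin B libraries to lie above both controls. INSM1 (4.31), NKX2-2 (3.96) and PAX4 (3.38) were among the 12, as was DLL3, an unusual Notch ligand that acts inside the cell, at 1.90 and 2.13 CPM against 15.5, 46.0 and 35.3 CPM. The others were KIF19, a kinesin of cilia (3.54), CHRNA3, a nicotinic receptor subunit (3.43), GJA4, a gap junction protein (3.09), BMP3, a BMP ligand that opposes other BMPs (3.02), HEPACAM2 (2.93) and the pseudogene SERTAD4BP (3.77).

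The 12 largest falls included the inhibitor genes ID1 and ID3 and the YAP readouts ANKRD1 and CCN2. ID1, an inhibitor of basic helix-loop-helix factors such as NEUROG3, fell from 90.4 and 96.2 CPM to 5.05, 2.73 and 4.09 CPM (log2 fold change -4.57, SE 0.20, adjusted p 7.27e-08). WNT2B, a WNT ligand, fell from 48.8 and 61.0 CPM to 3.79, 2.76 and 2.10 CPM (-4.25, SE 0.35), and ANKRD1, a nuclear protein and a standard readout of YAP, from 325 and 355 CPM to 24.5, 8.84 and 21.1 CPM (-4.23, SE 0.28). Lack of overlap between the groups was a condition for naming these genes. AJAP1, which binds adherens junctions, fell from 111 and 121 CPM to 12.4, 5.56 and 8.58 CPM, and SPTSSB, a small subunit of the enzyme that starts sphingolipid synthesis, from 20.6 and 19.98 CPM to 1.98, 1.53 and 1.03 CPM. NPPB, the B-type natriuretic peptide, is known to respond to mechanical load and fell by 3.62 on the log2 scale. The remaining falls were in TAGLN (-3.55), ACTC1 (-3.12), NXPH2 (-3.07), CCN2 (-3.02), SNCAIP (-2.90) and ID3 (-2.82).

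**Figure D2:**
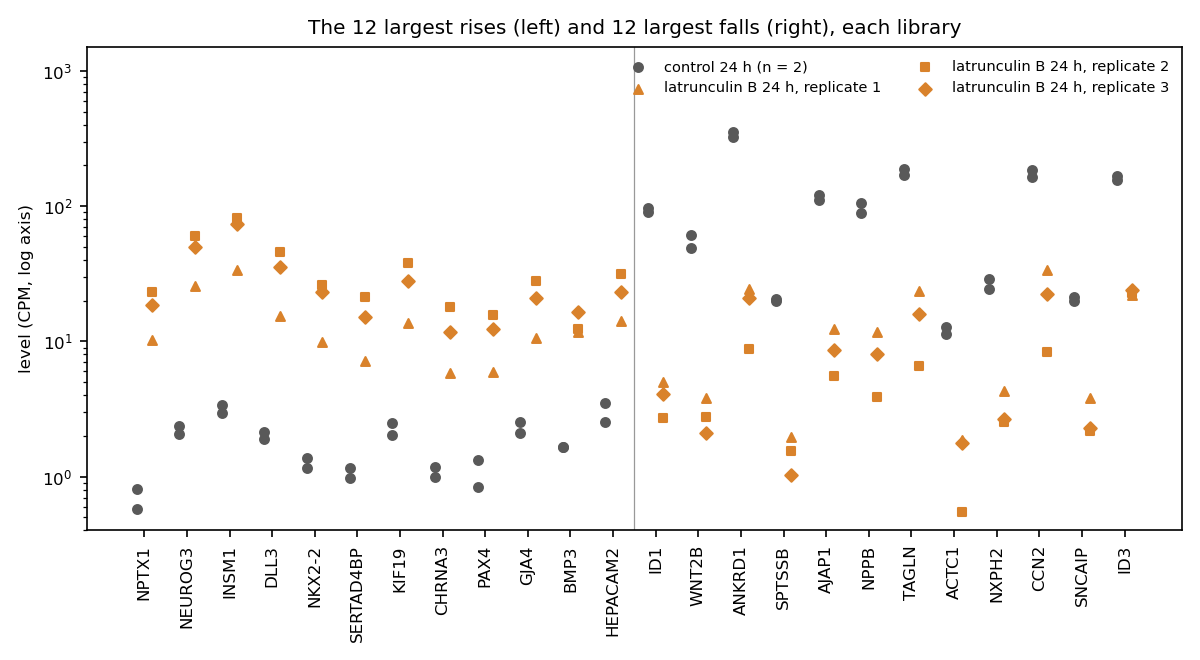
Level in CPM (log axis) of the 12 genes with the largest rises, left of the line, and the 12 with the largest falls, right of it, with every library as a point. Grey circles are the 2 control 24 h libraries and orange symbols the 3 latrunculin B 24 h libraries by replicate, and in NEUROG3 replicate 1 (25.6 CPM) lies nearest the controls (2.07 and 2.35 CPM).

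One library of the drug group lay nearer the controls than the other two in most of these genes. Latrunculin B replicate 1 was the closest to the controls in 12 of the 12 rises and in 11 of the 12 falls, with ID3 the exception. Among the 451 called rises of at least 1 on the log2 scale it was the closest in 272, and among the 762 falls of that size in 395. Without this library 6424 genes were called, and all 24 genes kept their call and direction.

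Of 24 tested transcription factors of the endocrine programme, 10 were called higher and 2 lower, with a median log2 fold change of 0.68. Only 1 was lower without either control library or without latrunculin B replicate 2 or 3. RFX6, which acts after NEUROG3, was at 12.98 and 10.9 CPM in the controls and 21.9, 36.1 and 31.5 CPM with the drug (1.32, SE 0.21, adjusted p 0.000253), and NEUROD1 at 0.915 and 0.971 CPM and 2.63, 8.47 and 8.25 CPM (2.77, SE 0.49). NKX6-2 was called lower, at 2.61 and 2.57 CPM against 0.921, 0.552 and 0.499 CPM (-1.97, SE 0.71, adjusted p 0.0396), and it was the gene whose call was lost in those fits. The other factor called lower is not named here, and the 1 fall in those fits was not NKX6-2. The factors of later islet cells were at low levels, and neither PAX6 (1.19, SE 0.48, adjusted p 0.0619) nor ISL1 (0.39) was called.

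Of 6 tested hormone genes, SST and PPY were called higher. SST, the hormone of delta cells, was at 16.9 and 14.3 CPM in the controls and 17.1, 80.9 and 68.4 CPM with latrunculin B, so replicate 1 lay just above the upper control and the other drug libraries far above it (1.83, SE 0.52, adjusted p 0.0133). PPY, at 0.0339 and 0.0313 CPM against 0.444, 0.583 and 0.299 CPM, rests on few reads. INS was at 1.49 and 1.19 CPM against 0.614, 0.982 and 3.96 CPM and not called (0.46, SE 0.61, adjusted p 0.576), and its groups overlapped, as did those of GCG (0.89, SE 0.88, adjusted p 0.448). Without control replicate 1 or without control replicate 2, no hormone gene was called, and without latrunculin B replicate 2 there was 1. With the control at 0 h as the reference, 5 of the 6 were called higher, with a median of 2.69.

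Genes of secretory granules and regulated secretion rose in part, with 14 of 38 called higher, 4 lower and a median of 0.41. Their log2 fold changes ran from -0.97 to 2.81. The called genes named in this paragraph are rises, and the 4 called lower are not named. PCSK2, a convertase that cuts prohormones, was at 0.915 and 0.658 CPM against 3.04, 5.43 and 5.75 CPM (2.59, SE 0.38, adjusted p 0.00016), and SCG2, a granin of granules, at 2.71 and 1.91 CPM against 4.74, 13.7 and 14.6 CPM (2.25, SE 0.47). The potassium channel gene KCNK17 rose by 2.81 and the calcium sensor gene SYT4 by 2.16 on the log2 scale. CHGA, the main granin, was at 60.9 and 50.4 CPM against 26.2, 102 and 96.9 CPM and not called (0.43, SE 0.43, adjusted p 0.449), with replicate 1 below both controls. CHGA also has a copy on an alternate sequence, so its level is uncertain. Without control replicate 2, 8 of these genes were called higher, and without control replicate 1, 2 were lower.

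In the Notch pathway the Delta ligand genes DLL1, DLL3 and DLL4 rose and the Jagged ligand gene JAG1 fell, with 9 of 30 pathway genes called higher, 6 lower and a median of 0.01. DLL4 was at 3.08 and 2.69 CPM in the controls and 13.3, 20.8 and 15.996 CPM with the drug (2.53, SE 0.17, adjusted p 6.47e-07), and DLL1, which NEUROG3-positive cells present to their neighbours, at 46.1 and 37.9 CPM and 88.5, 147 and 120.3 CPM (1.498, SE 0.19). JAG1 went from 638 and 676 CPM to 344, 227 and 296 CPM (-1.18, SE 0.12, adjusted p 9.75e-06). The ligand groups did not overlap in any of these genes, and DLL1 has a copy on an alternate sequence. HES6, which opposes HES1, rose by 1.61 and the fringe enzyme gene LFNG by 0.88 on the log2 scale. HES4 fell by 0.91 and the receptor gene NOTCH2 by 0.35. HES1 was at 122 and 118 CPM against 98.6, 111 and 106 CPM and was not called (-0.19, SE 0.13, adjusted p 0.259).

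Progenitor factors moved both ways. Of 27 tested, 7 were called higher and 9 lower, with a median of -0.05, and without control replicate 1 there were 1 and 6, without control replicate 2 there were 2 and 7, and without latrunculin B replicate 2 there were 4 higher. ONECUT1, an early pancreatic and liver factor, went from 52.0 and 43.8 CPM to 24.2, 21.0 and 22.4 CPM (-1.09, SE 0.09, adjusted p 2.58e-06). The related ONECUT2 went from 302 and 300.3 CPM to 205, 152 and 147 CPM (-0.84, SE 0.11), and GLIS3, a factor of progenitors and beta cells, from 241 and 254 CPM to 148, 132 and 153 CPM (-0.78, SE 0.08). All 3 fell with no overlap. SOX9, a factor of the duct-forming trunk, fell too (-0.28), but its call was lost in 3 of 13 alternatives. GP2 was at 1392 and 1381 CPM in the controls and 1663, 2385 and 2236 CPM with the drug (0.60, SE 0.18, adjusted p 0.0157), and FOXA3 at 28.3 and 28.0 CPM and 49.2, 60.5 and 52.0 CPM (0.94, SE 0.11). Every drug library lay above both controls in these genes. The call of GP2 was lost without either control library, without latrunculin B replicate 2 and against the control at 0 h. PTF1A was called higher below 1 CPM (1.73, SE 0.62) but lost its call in 9 of 12 alternatives, DESeq2 among them. PDX1 stood at 316 and 317 CPM against 222, 302 and 279 CPM, below both controls in every drug library, but was not called (-0.24, SE 0.11, adjusted p 0.088). The groups overlapped in NKX6-1, at 91.2 and 103 CPM against 82.3, 101 and 115 CPM (0.03, SE 0.11, adjusted p 0.835). SOX2 rose by 2.59 on the log2 scale at levels of at most 2.80 CPM, and CDX2, an intestinal factor, fell by 1.06.

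Of the other 2 pancreatic lineages, duct markers had 3 of 21 called higher and 5 lower, and acinar markers 6 of 15 called higher and 1 lower. AQP5, a water channel, fell from 12.3 and 12.8 CPM to 2.97, 2.76 and 2.49 CPM (-2.19, SE 0.23, adjusted p 1.34e-05), and SLC4A4, the bicarbonate cotransporter, from 1807 and 1899.9 CPM to 1094, 1078 and 1116 CPM (-0.76, SE 0.07). TFF3, a secreted trefoil peptide, rose from 1.19 and 0.971 CPM to 3.58, 3.81 and 3.19 CPM (1.71, SE 0.37), and SLC26A3, an anion exchanger, from 31.3 and 28.3 CPM to 52.8, 57.6 and 73.5 CPM (1.04, SE 0.35), though its call was lost without either control library or without latrunculin B replicate 3. CFTR was at 1648 and 1636 CPM against 1134, 1091 and 1333 CPM and was not called (-0.47, SE 0.30, adjusted p 0.237). The acinar enzyme CELA3A, an elastase, was at 1.02 and 0.501 CPM against 4.23, 11.54 and 7.82 CPM (3.37, SE 0.49, adjusted p 0.000162), while CPA1, a carboxypeptidase of acinar cells, was not called (0.26). SPINK1, a trypsin inhibitor, rose from 621 and 611 CPM to 933, 1155 and 1168 CPM, but its call was lost in 5 of 13 alternatives. The acinar fall was in AMY2B, an amylase, from 8.03 and 3.66 CPM to 2.08, 2.24 and 1.995 CPM (-1.47, SE 0.33). Its call was lost without control replicate 1, and amylase genes have near-identical copies, so its level is uncertain. Without either control library or latrunculin B replicate 2, 3 acinar genes were called higher, and without control replicate 1 or latrunculin B replicate 3, 1 duct gene was.

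Targets of YAP and TEAD had more falls than rises at 24 h. Of 23 tested, 12 were called lower and 5 higher, with a median of -0.62 and a range from -4.23 to 1.23. The targets named in this paragraph are falls, and the 5 called higher are not named. CCN2, a matricellular protein, was at 164 and 184 CPM in the controls and 33.8, 8.32 and 22.6 CPM with latrunculin B, and CCN1 at 82.3 and 90.9 CPM and 38.6, 11.1 and 27.0 CPM (-1.76, SE 0.33, adjusted p 0.000865). Both were lowest in replicate 2. CRIM1 (-1.61, with a copy on an alternate sequence), NUAK2 (-1.47), RBMS3 (-1.32) and MYOF (-1.24) fell as well. Without control replicate 1, 11 were called lower and 1 higher, and without control replicate 2 or latrunculin B replicate 2 or 3 there were 2 to 3 higher. In the pathway itself 11 of 21 genes were called lower and 2 higher, with a median of -0.35: WWC2, a scaffold that activates the kinase LATS, fell from 248 and 256 CPM to 109.7, 76.8 and 93.7 CPM (-1.43, SE 0.11), and the factor genes TEAD4 (-0.90), TEAD3 (-0.69) and TEAD1 (-0.59) fell, while YAP1 was at 214 and 216 CPM against 221, 218 and 226 CPM and not called (0.05, SE 0.06, adjusted p 0.576).

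The 250 bases before the start of each gene, from RefSeq on GRCh38.p14, were searched on both strands for GGAATG, the core to which TEAD binds. It was found in 5 of the 17 YAP target genes that have a promoter in the table, or 29.4%, against 9.42% of the promoters of all genes tested here and 11.9% of the whole table. The promoters of CCN2 (3 matches, at chr6:131951373-131951622, minus strand) and ANKRD1 (2 matches, at chr10:90921088-90921337, minus strand) are shown since these are the targets that fell most, with the matches in capitals, read 5′ to 3′ along the gene's strand. A match describes the letters and shows no binding. PTPN14 and TGFB2 also have a match and were not called, and the share describes a list of known targets.
CCN2: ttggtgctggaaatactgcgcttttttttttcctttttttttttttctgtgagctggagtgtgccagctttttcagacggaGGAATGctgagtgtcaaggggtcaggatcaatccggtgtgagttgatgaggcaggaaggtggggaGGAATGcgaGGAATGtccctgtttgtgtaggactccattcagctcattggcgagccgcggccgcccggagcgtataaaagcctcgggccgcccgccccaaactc
ANKRD1: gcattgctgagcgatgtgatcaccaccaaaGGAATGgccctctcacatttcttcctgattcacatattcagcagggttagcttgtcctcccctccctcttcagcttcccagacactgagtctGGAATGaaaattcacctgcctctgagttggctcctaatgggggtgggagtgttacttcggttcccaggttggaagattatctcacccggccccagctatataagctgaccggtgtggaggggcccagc

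Most genes read out by MRTF and SRF fell. Of 43 tested, 26 were called lower and 5 higher, with a median of -0.38, and the summed level of the list was 18775 to 19818 CPM in the controls and 12328 to 14749 CPM with latrunculin B. TAGLN, an actin cross-linker of contractile cells, was at 170.1 and 189 CPM against 23.6, 6.63 and 15.996 CPM (-3.55, SE 0.39, adjusted p 1.96e-05), and MYL9, a myosin light chain, at 143 and 156 CPM against 32.7, 22.7 and 36.0 CPM (-2.30, SE 0.18). TPM1, a tropomyosin that winds along filaments, went from 636 and 654 CPM to 245, 183 and 251 CPM (-1.51, SE 0.15). Replicate 2 was the lowest drug library in these genes, and the groups did not overlap. When control replicate 1 was left out, 3 of the list were called higher. CNN1 (-2.56), ACTG2 (-2.37), ACTA1 (-2.32) and VCL, which links actin to adhesions (-0.66), fell too. The actin of all cells changed less: ACTG1 went from 2308 and 2464 CPM to 1919.5, 1579.9 and 2006 CPM (-0.38, SE 0.10, adjusted p 0.00855), ACTB from 2547 and 2706 CPM to 2448, 2089 and 2502 CPM, which was not called (-0.16, SE 0.09, adjusted p 0.146), and SRF itself was not called (0.18, SE 0.08, adjusted p 0.106).

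The CArG box, which SRF binds, lay in the 250 bases before 9 of the 38 genes of this list that have a promoter in the table, or 23.7%, against 1.07% of the promoters of the genes tested. The list is one of SRF targets, so this share describes the list and not the changes at 24 h. Among the genes with a box, FHL2 was called higher, and SRF and CNN2 were not called. The promoters of ACTC1 (chr15:34795550-34795799, minus strand) and ACTG2 (chr2:73892758-73893007, plus strand), muscle actins that fell, are shown with the match or matches in capitals.
ACTC1: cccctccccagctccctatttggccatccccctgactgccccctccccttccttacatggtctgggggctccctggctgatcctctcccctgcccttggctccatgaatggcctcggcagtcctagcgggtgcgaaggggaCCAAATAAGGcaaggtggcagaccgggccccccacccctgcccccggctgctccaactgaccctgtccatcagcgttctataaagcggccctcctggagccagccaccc
ACTG2: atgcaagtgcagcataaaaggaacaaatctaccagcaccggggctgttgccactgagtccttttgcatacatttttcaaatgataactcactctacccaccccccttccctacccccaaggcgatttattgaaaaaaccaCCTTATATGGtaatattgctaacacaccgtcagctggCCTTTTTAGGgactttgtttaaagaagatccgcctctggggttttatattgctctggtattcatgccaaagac

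Of 38 genes of actin turnover, 10 were called higher and 11 lower, with a median of 0.02. These fell to 4 higher without control replicate 1 and to 7 lower without control replicate 2. DSTN, which severs filaments, fell by 0.57 and DIAPH3, a formin, by 1.36 on the log2 scale, and FSCN1, which bundles filaments, rose by 0.57. Among 14 tubulins 2 were called higher and 1 lower, with none higher without control replicate 1, 1 without latrunculin B replicate 3 and 3 without its replicate 1. Of 14 genes of the chaperonin TRiC, which folds actin and tubulin, and its partners, 12 were called higher and none lower, by small amounts, with a median of 0.19. CCT3 was at 190.2 and 202 CPM against 293, 300.1 and 311 CPM (0.62, SE 0.05, adjusted p 2.41e-06) and TCP1 at 232 and 244 CPM against 271, 263 and 267 CPM (0.17, SE 0.04). Without control replicate 1 only 3 of the TRiC genes were called, and without latrunculin B replicate 3 there were 6.

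Many genes by which the epithelium holds its matrix and its neighbours fell. Of 24 basement membrane genes 14 were called lower and 1 higher, with a median of -0.55, and their summed level was 14998 to 15690 CPM in the controls and 8681 to 10108 CPM with the drug. HSPG2, which encodes perlecan, went from 2544 and 2459 CPM to 1296, 1097 and 1039.5 CPM (-1.13, SE 0.13, adjusted p 3.49e-05). LAMA5, the laminin chain of mature epithelia, went from 584 and 497 CPM to 222, 228 and 205 CPM (-1.31, SE 0.15), and AGRN, agrin, from 1762 and 1899 CPM to 1128, 947 and 981 CPM (-0.85, SE 0.10). The drug libraries lay below both controls in each. COL4A1 (-0.97), COL4A2 (-0.72) and LAMB1 (-0.49) fell as well, while LAMA4 was not called (-0.02). COL4A4 rose by 1.91 at levels of at most 2.82 CPM, and without control replicate 1 no gene of the list was called higher.

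Of 18 integrins 3 were called higher and 7 lower. ITGB6, an epithelial partner of ITGAV, fell from 27.0 and 30.2 CPM to 7.92, 5.19 and 7.05 CPM (-2.09, SE 0.28, adjusted p 8.59e-05), and ITGB1, the common beta chain, from 1114 and 1228 CPM to 1054, 901 and 984 CPM (-0.26, SE 0.10, adjusted p 0.0457). The call of ITGB1 was lost in 6 of 13 alternatives. The laminin-binding chain genes ITGA3 (-0.71) and ITGA6 (0.75) went opposite ways, ITGA6 from 196 and 205 CPM to 338, 339.9 and 334 CPM. Of 37 junction and polarity genes 17 were called lower and 5 higher, with a median of -0.20, and 2 to 3 were higher when control replicate 1 or 2 or latrunculin B replicate 2 or 3 was left out. DSP of desmosomes (-0.58), CGN of tight junctions (-0.68), CLDN4 (-0.65), OCLN (-0.55, with a copy on an alternate sequence) and CDH6 (-0.78) fell. The 5 junction and polarity genes called higher are not named here, and the highest log2 fold change of that list was 0.28. CDH1, E-cadherin, fell by 0.15, and EPCAM (-0.10) and CTNNB1 (0.08) were not called. The call of CDH1, like that of KRT19 below, was lost in 4 of 13 alternatives. The simple epithelial keratins also parted: KRT18 went from 1328 and 1451 CPM to 672, 608 and 659.7 CPM (-1.10, SE 0.08, adjusted p 6.78e-07) and its partner KRT8 from 2808 and 3114 CPM to 1769, 1472 and 1659.8 CPM (-0.86, SE 0.09), whereas KRT19 went from 679.7 and 752 CPM to 884, 819 and 864 CPM and was called higher (0.26, SE 0.09, adjusted p 0.0378).

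**Figure D3:**
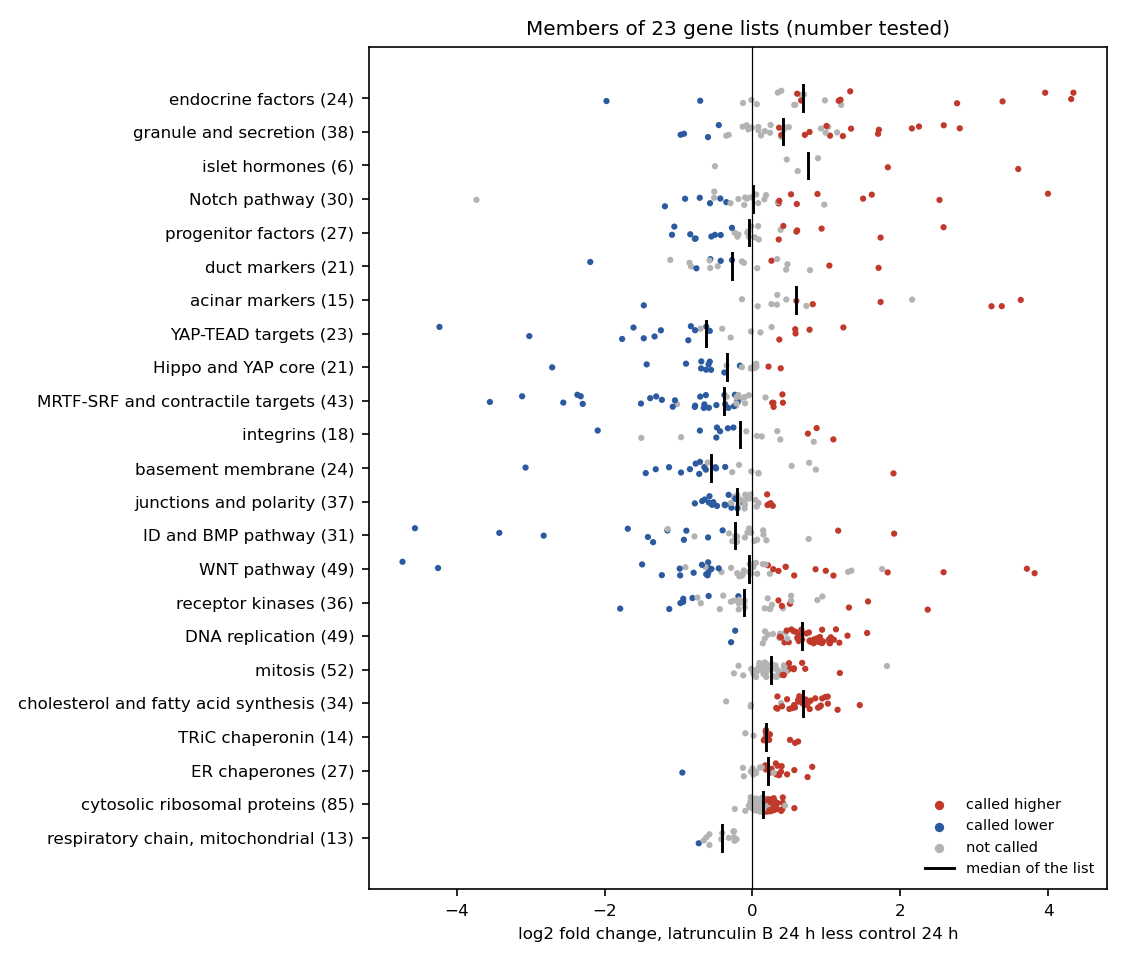
Log2 fold change at 24 h (horizontal axis) of every tested member of 23 gene lists, each point a gene and each black bar the median of its list. Red members were called higher, blue lower and grey not called. Examples are 30 of 34 called higher in cholesterol and fatty acid synthesis and 14 of 24 called lower in basement membrane genes.

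Of 31 genes of the ID and BMP list 11 were called lower and 2 higher, with a median of -0.23. The rises were in the ligand gene BMP7, named here after its values were seen, from 28.9 and 36.2 CPM to 79.7, 69.1 and 69.6 CPM (1.16, SE 0.17), and in ATOH8 (1.92). ID3 went from 155 and 168 CPM to 21.8, 22.7 and 23.8 CPM (-2.82, SE 0.16, adjusted p 1.45e-07), ID4 from 73.6 and 77.5 CPM to 32.3, 23.4 and 29.4 CPM (-1.41, SE 0.13) and ID2 from 122 and 120.2 CPM to 57.4, 69.8 and 63.6 CPM (-0.93, SE 0.14). With ID1 this makes all 4 ID genes, each with no overlap between groups, as in nearly all called genes. The feedback inhibitor genes SMAD7 (-1.69) and SMAD6 (-0.60) fell, as did the ligand gene BMP2 (-1.34) and NOG, a secreted BMP antagonist, from 4.98 and 5.20 CPM to 0.614, 0.307 and 0.499 CPM. The related list of activin and TGF-beta genes was mixed, with 9 of 33 higher and 7 lower. FSTL1, a secreted glycoprotein that binds this family, fell from 787 and 862 CPM to 305, 261 and 281 CPM (-1.55, SE 0.15). INHBB, an activin subunit, rose by 1.69 and FST, follistatin, by 0.98 (adjusted p 0.0473). The call of FST was lost in 5 of 13 alternatives. Without control replicate 1, 2 of this list were called higher, and without control replicate 2 or latrunculin B replicate 1 or 3 there were 4 to 5.

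The WNT pathway was mixed. Of 49 pathway genes 15 were called lower and 12 higher (median -0.04), and without control replicate 2 there were 8 lower. The ligand gene WNT16 fell from 1.97 and 2.35 CPM to 0.171, 0 and 0.0665 CPM. The receptor genes moved both ways, FZD8 from 48.6 and 58.8 CPM to 24.1, 14.2 and 19.1 CPM (-1.49, SE 0.23) and FZD9 from 3.12 and 4.04 CPM to 6.31, 17.6 and 14.3 CPM (1.83, SE 0.43), a rise whose call was lost without control replicate 1. Several genes that beta-catenin is known to switch on rose. LGR5, a receptor for R-spondins, went from 0.271 and 0.188 CPM to 3.45, 3.04 and 3.36 CPM (3.82, SE 0.34, adjusted p 4.24e-06), NKD1 from 1.22 and 1.75 CPM to 7.44, 10.99 and 8.48 CPM (2.59, SE 0.25) and AXIN2 from 14.7 and 15.3 CPM to 24.6, 29.1 and 27.7 CPM (0.85, SE 0.18). The targets RNF43 (0.06) and LEF1 (0.01) were not called. SP5, another target, rose by 3.71 at levels of at most 6.23 CPM. The groups did not overlap in any of the genes called.

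Among 35 genes of ERK feedback and the immediate early response 12 were called higher and 2 lower, with a median of 0.41, and without control replicate 1 there were 7 higher. MYC went from 13.9 and 13.1 CPM to 31.7, 41.6 and 36.0 CPM (1.44, SE 0.30), ATF3 from 20.5 and 22.98 CPM to 57.0, 41.4 and 51.7 CPM (1.203, SE 0.12) and KLF4 from 2.41 and 2.38 CPM to 7.98, 5.99 and 6.42 CPM (1.504, SE 0.17). DUSP1, a phosphatase of MAP kinases, fell by 0.83, and the ERK readouts DUSP6 (0.20) and SPRY4 (0.44) were not called. Of 36 receptor kinases 6 were called higher and 8 lower. FGFR3 fell from 382 and 340.3 CPM to 94.2, 116 and 103 CPM (-1.79, SE 0.14, adjusted p 1.33e-06) and FGFR2, the receptor for the mesenchymal signal FGF10, from 300.3 and 291 CPM to 156, 142 and 154 CPM (-0.97, SE 0.14). RET, the receptor for GDNF, rose from 1.53 and 1.503 CPM to 7.37, 7.18 and 9.01 CPM (2.37, SE 0.19) and KIT, the receptor for stem cell factor, from 17.8 and 18.3 CPM to 42.9, 62.9 and 54.4 CPM (1.56, SE 0.19). EGFR was not called (0.23, SE 0.11, adjusted p 0.107).

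Genes of DNA replication were higher than in the control of the same age, and the choice of control moved their number. Of 49 tested, 38 were called higher and 2 lower, with a median of 0.67. MCM2, a subunit of the replicative helicase, was at 36.2 and 42.6 CPM in the controls and 113, 119 and 115 CPM with latrunculin B (1.55, SE 0.09, adjusted p 2.59e-07), and PCNA, the sliding clamp, at 48.7 and 56.5 CPM and 104, 100.3 and 93.3 CPM (0.91, SE 0.14). RRM2, which makes deoxynucleotides, was at 22.7 and 28.2 CPM and 41.4, 43.3 and 36.2 CPM (0.66, SE 0.15). The control at 0 h stood at 52.2 CPM for MCM2, 71.2 CPM for PCNA and 54.6 CPM for RRM2, between or above the groups of 24 h. With the control at 0 h as the reference, 17 replication genes were called higher and 5 lower, and the median was 0.16.

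For mitosis the reference turned the direction. Of 52 genes 11 were called higher and none lower against the control at 24 h, with a median of 0.25, and without control replicate 1 or latrunculin B replicate 2 there were 4 and 7 higher. Against the control at 0 h, 1 was called higher and 39 lower, with a median of -0.49. MKI67, the proliferation antigen, was at 36.3 and 39.6 CPM in the control at 24 h, 44.9, 60.7 and 41.7 CPM with latrunculin B and 75.2 CPM in the control at 0 h (mean of 3), and was not called at 24 h (0.37, SE 0.20, adjusted p 0.162). TOP2A (0.17, SE 0.16, adjusted p 0.442) and CDK1 (0.06, SE 0.15, adjusted p 0.774) were not called either. The drug group thus lay between both controls in these genes, and RRM2, MKI67, TOP2A, CDK1, ANLN, CENPF, KIFC1 and CDCA5 changed sign between references. KIFC1 has a copy on an alternate sequence. CDC25B, a phosphatase that opens mitosis, was at 24.0 and 21.8 CPM against 37.9, 68.0 and 50.05 CPM (1.18, SE 0.21) and 24.9 CPM in the control at 0 h.

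**Figure D4:**
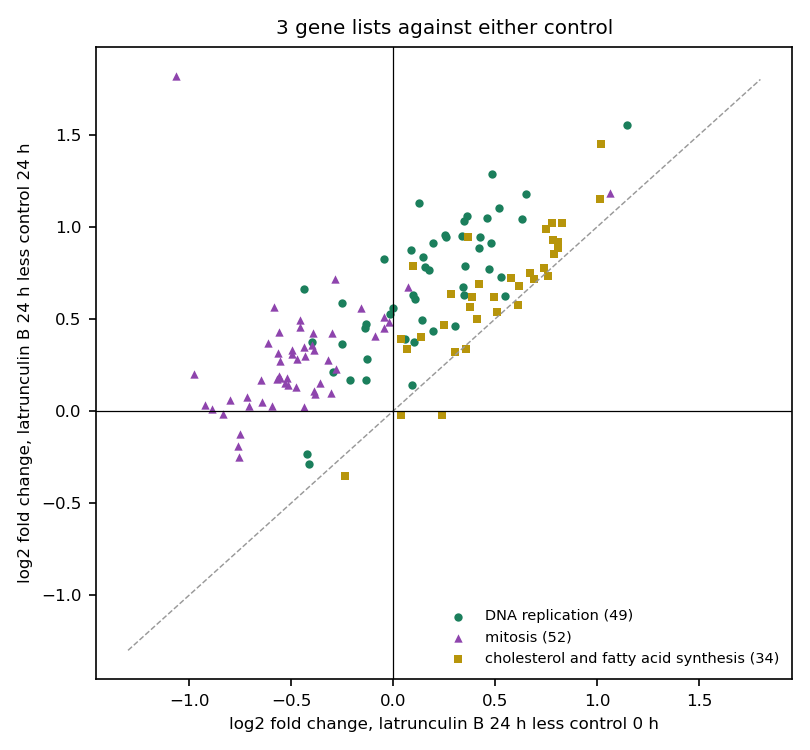
Log2 fold change of latrunculin B 24 h against the control at 24 h (vertical axis) and against the control at 0 h (horizontal axis), with each point a gene of replication (circles), mitosis (triangles) or cholesterol and fatty acid synthesis (squares) and equal values on the dashed line. Of the 52 mitosis genes 48 lie above 0 on the vertical axis and 2 on the horizontal one.

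Sequences that E2F factors recognise, TTTCCCGC and TTTGGCGC, were searched in the same way. They lay before 14 of the 43 replication genes with a promoter in the table, or 32.6%, against 2.84% of the promoters of the genes tested. POLE and LIG1, each with a match, were not called. The promoters of MCM6, with 2 matches (chr2:135876444-135876693, minus strand), and PCNA (chr20:5126623-5126872, minus strand), which rose by 0.63 and 0.91 on the log2 scale, are shown with the matches in capitals. The letters CCAAT were found before 32 of 47 mitosis genes, or 68.1%, against 34.5% for the genes tested. Both shares describe the lists and not the changes at 24 h, and a match shows no binding.
MCM6: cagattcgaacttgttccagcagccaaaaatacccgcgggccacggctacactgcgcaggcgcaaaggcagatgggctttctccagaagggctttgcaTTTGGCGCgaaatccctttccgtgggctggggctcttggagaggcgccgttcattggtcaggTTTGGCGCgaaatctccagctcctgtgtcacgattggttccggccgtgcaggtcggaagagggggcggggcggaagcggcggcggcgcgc
PCNA: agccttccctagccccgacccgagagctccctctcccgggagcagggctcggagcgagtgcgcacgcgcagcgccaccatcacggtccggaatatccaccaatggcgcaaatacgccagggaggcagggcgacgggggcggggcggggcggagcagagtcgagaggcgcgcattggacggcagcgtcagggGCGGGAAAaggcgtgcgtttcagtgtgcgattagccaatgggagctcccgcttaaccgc

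Of 18 brakes and drivers of the cycle 5 were called higher and 3 lower. CDKN1B, the inhibitor p27, rose from 22.1 and 22.4 CPM to 40.5, 54.0 and 41.2 CPM (1.03, SE 0.11, adjusted p 1.81e-05), and CDK4 from 94.4 and 103 CPM to 149, 148 and 152 CPM (0.60, SE 0.07). CCND1, cyclin D1, fell from 2302 and 2398 CPM to 1695, 1846 and 1979.5 CPM (-0.35, SE 0.07). CDKN1C, the inhibitor p57 of NEUROG3-positive cells, fell by 0.46 (adjusted p 0.0415) and has a copy on an alternate sequence. Its call was lost in 6 of 13 alternatives. Of 22 targets of p53, 4 were called higher and 1 lower, and without control replicate 1 or latrunculin B replicate 1 there were 2 higher. BTG2, an antiproliferative gene, rose from 153 and 168 CPM to 244, 278 and 265 CPM (0.71, SE 0.09), and neither CDKN1A (0.06, SE 0.38, adjusted p 0.923) nor MDM2 (0.38, SE 0.23, adjusted p 0.202) was called.

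Cholesterol and fatty acid synthesis rose almost throughout, with 30 of 34 genes called higher and none lower and a median of 0.69. HMGCS1, at the head of the cholesterol pathway, went from 81.8 and 93.0 CPM to 225, 184 and 173 CPM (1.15, SE 0.10, adjusted p 4.1e-06), and SCD, which desaturates fatty acids, from 219 and 241 CPM to 469, 488 and 411 CPM (0.99, SE 0.09). All drug libraries were above both controls in these genes. INSIG1, the sterol sensor that restrains the pathway, rose by 1.45 and DHCR7, the last enzyme of cholesterol synthesis, by 1.02 on the log2 scale. Against the control at 0 h 27 of the list were called higher, and without control replicate 1 there were 27 too. The letters TCACNCCAC of the sterol response element lay before 1 of the 26 genes with a promoter in the table, SREBF2. This is 3.85%, against 0.902% of the promoters of the genes tested. CCAAT lay before 17 of the 26, or 65.4%, against 34.5% for the genes tested. These shares describe the list and not the changes at 24 h.

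Other metabolic lists were mixed. In glycolysis and the hypoxia response, with 12 of 35 higher and 6 lower, the glucose transporter genes parted: SLC2A1 went from 41.7 and 45.9 CPM to 126, 116 and 133 CPM (1.51, SE 0.18, adjusted p 3.11e-05) and SLC2A3 from 160.4 and 183 CPM to 51.7, 36.1 and 42.9 CPM (-1.98, SE 0.31, adjusted p 0.000275). VEGFA fell by 0.58. The list had 7 higher and 2 lower without control replicate 1, and 3 lower without latrunculin B replicate 3. Of 14 genes around pyruvate dehydrogenase, 2 were called higher and 1 lower, and 1 was higher when any of the 5 libraries but latrunculin B replicate 3 was left out. PDK4, the kinase that shuts the enzyme down, was at 23.5 and 22.98 CPM against 63.5, 96.1 and 90.2 CPM (1.84, SE 0.37), and PDK1 was not called (0.30, SE 0.25, adjusted p 0.376). Among 32 genes of fatty acid oxidation 11 were called higher and 4 lower. PLIN2, which coats lipid droplets, was at 20.5 and 18.1 CPM against 37.7, 75.9 and 58.6 CPM (1.57, SE 0.43), and CPT1A, which brings fatty acids into mitochondria, rose by 0.58. Without control replicate 1 this list had 6 higher and 2 lower, and without control replicate 2 it had 5 and 1. In the urea cycle ASS1 was at 5.15 and 5.95 CPM against 17.2, 42.6 and 38.01 CPM (2.55, SE 0.32, adjusted p 4.77e-05), and 6 of 13 genes were called higher and 2 lower.

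Among housekeeping groups, 32 of 85 cytosolic ribosomal protein genes were called higher and none lower, with a median of 0.15, and without control replicate 1 there were 10. Of 80 nuclear genes of the respiratory chain 22 were called higher and 9 lower, and without control replicate 1 there were 4 and 5, without control replicate 2 there were 5 lower and without latrunculin B replicate 3 there were 13 higher. The 13 messages of the mitochondrial genome had a median of -0.41, and 1 was called, MT-CO1, at 15924 and 12452 CPM against 7915, 9297 and 8515 CPM (-0.73, SE 0.21, adjusted p 0.0151). When the 5 libraries were fitted by themselves, 10 of the 13 were called lower. Mitochondrial transcripts took 5.38% and 4.41% of the reads in the controls and 3.22%, 3.78% and 3.52% with latrunculin B, and this share also ran from 2.36% to 5.39% over the other groups.

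Chaperones of the endoplasmic reticulum had 15 of 27 genes called higher and 1 lower, with a median of 0.22. XBP1, a factor of secretory cells, went from 202 and 211 CPM to 295, 457 and 333 CPM (0.81, SE 0.19), MANF from 35.0 and 38.2 CPM to 65.7, 58.2 and 60.3 CPM (0.75, SE 0.09) and HSPA5, the main chaperone, from 781 and 832 CPM to 993, 923 and 940.1 CPM (0.24, SE 0.06). EDEM2 fell by 0.95, and without control replicate 1, 8 of the list were called higher. The integrated stress response was mixed, with 9 of 30 higher and 5 lower, or 3 lower without control replicate 2. DDIT4, which restrains mTORC1, rose by 0.70, while the amino acid response genes ASNS (-0.08, SE 0.11, adjusted p 0.554) and TRIB3 (-0.40, SE 0.15, adjusted p 0.0507) were not called. Of 33 genes of FOXO and insulin signalling 9 were higher and 8 lower, and without control replicate 1 there were 4 and 5, and without control replicate 2 there were 5 higher. IGFBP7 fell from 190.1 and 226 CPM to 64.8, 31.6 and 34.8 CPM (-2.25, SE 0.26) and IGFBP3 rose from 326 and 332 CPM to 703, 762 and 851 CPM (1.23, SE 0.14), the substrate genes IRS1 (-0.87) and IRS2 (-0.72) fell, and TXNIP was not called (-0.92, SE 0.35, adjusted p 0.0505). Of 37 lysosome and autophagy genes 8 were higher and 6 lower (4 higher without either control library, 3 lower without control replicate 2), with SQSTM1, an autophagy receptor, at 112 and 109 CPM against 199, 160.3 and 195 CPM (0.74, SE 0.08). In the BEX and TCEAL family, small proteins encoded on the X chromosome, BEX5 was at 3.90 and 3.54 CPM against 24.0, 26.9 and 25.7 CPM (2.78, SE 0.21), and BEX1 (-0.08) and BEX2 (0.08) were not called. In all, 5 of 13 of this family were called higher and 1 lower.

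Markers of other cell types were looked at for cells that the cultures could also hold. Of 31 mesenchymal and stromal genes 1 was called higher and 2 lower (4 lower without latrunculin B replicate 1, 1 without control replicate 1), with a summed level of 7948 to 8386 CPM in the controls and 7318 to 9233 CPM with the drug. COL3A1 was at 69.4 and 90.3 CPM against 152, 28.5 and 72.2 CPM and DCN at 1.22 and 1.41 CPM against 1.47, 0.0921 and 0.0998 CPM, neither called, and replicate 1 was the highest drug library in both. Of 20 liver serum protein genes 3 were called higher and 2 lower (none lower without control replicate 2 or latrunculin B replicate 2, and 1 without any other of the 5 libraries), APOB rising from 23.9 and 20.9 CPM to 65.5, 96.4 and 73.1 CPM (1.81, SE 0.27), over a summed level of 2581 to 2665 CPM in the controls and 2266 to 2687 CPM with the drug, with AFP (0.40, SE 0.29, adjusted p 0.306) and ALB (1.38, SE 1.29, adjusted p 0.419) not called and ALB at 0.441 and 1.25 CPM against 6.28, 0.43 and 0 CPM. Of 12 markers of intestine and stomach 2 were called higher and 1 lower, with none higher when either control library was left out and 1 when a latrunculin B library was, and a summed level of 350 to 355 CPM in the controls and 287 to 291 CPM with the drug. Of 9 endothelial markers 2 were called higher and 2 lower, with sums of 29.8 to 32.7 CPM and 22.3 to 37.8 CPM, and CDH5 was at 0.171 CPM or less in all 5 libraries. Without control replicate 1 there were 1 and 1 endothelial calls, without control replicate 2 there was 1 higher, and without latrunculin B replicate 2 there was 1 lower. Of 8 pluripotency genes 1 was called higher and 2 lower, with sums of 433 to 467 CPM and 272 to 302 CPM, LIN28A falling from 397 and 430.0 CPM to 234, 258 and 243 CPM (-0.76, SE 0.08), with POU5F1 at 2.14 CPM or less. Leaving out any of the 5 libraries but latrunculin B replicate 1 left 1 pluripotency gene lower. The part of such cells in the results above was not tested.

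Of 27 neuronal and axonal genes 9 were called higher and 6 lower. Their summed level was 1979 to 2174 CPM in the controls and 2260 to 2613 CPM with the drug. In fits without control replicate 2 or without latrunculin B replicate 2, 3 were lower. NCAM1, an adhesion protein shared by neurons and endocrine cells, rose from 50.6 and 51.9 CPM to 156, 138 and 143 CPM (1.51, SE 0.17, adjusted p 2.2e-05), and UCHL1 from 67.7 and 77.0 CPM to 165, 135 and 161 CPM (1.09, SE 0.20). The guidance genes ROBO2, from 66.7 and 64.2 CPM to 18.4, 20.04 and 17.3 CPM (-1.82, SE 0.09), and its ligand SLIT2 (-1.70, SE 0.27) fell. Among the blood markers LYZ, lysozyme, stood out: it was at 368 and 309 CPM in the controls and 1502, 1788 and 1505 CPM with latrunculin B (2.24, SE 0.30, adjusted p 7.79e-05), while PTPRC, SPI1 and the globins were too low to be tested and CD68 fell by 0.78 (adjusted p 0.0293) from 3.83 and 3.29 CPM. The call of CD68 was lost when any one of the 5 libraries except latrunculin B replicate 2 was left out. The 6 tested blood markers summed to 316 to 376 CPM in the controls and 1506 to 1793 CPM with the drug. LYZ is also made by glands and Paneth cells.

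Among genes that code for no protein, more calls were falls than rises. Of 367 long noncoding RNA genes tested 98 were called lower and 13 higher, against 2934 lower and 3614 higher of 15399 protein-coding genes. Among pseudogenes there were 43 lower and 19 higher of 458 processed ones and 14 lower and 1 higher of 113 unprocessed ones. PI4KAP1 went from 60.6 and 47.4 CPM to 27.6, 27.3 and 25.6 CPM (-1.01, SE 0.20), AHSA2P from 209 and 136 CPM to 42.9, 47.6 and 39.7 CPM (-1.99, SE 0.24) and WASH5P from 196 and 139.9 CPM to 92.0, 92.8 and 87.1 CPM (-0.89, SE 0.20). Control replicate 1 was above control replicate 2 in each, as it was in the share of reads on transcripts that retain an intron, given above, and the part of that share in these falls was not tested. Pseudogenes can share reads with their parent genes, so single values are uncertain. GTF2IP4, from 613 and 576 CPM to 365, 364 and 365 CPM (-0.70, SE 0.06), fell with controls close together.

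The effect at 24 h was set against that at 6 h, which was measured against the control at 0 h, to see which changes were still growing. The difference of effects was called in 3754 genes (22.5% of those tested), 1898 positive and 1856 negative. Without scaling the split was 3156 positive and 1209 negative. Among the 12 largest rises, DLL3 had an effect of 0.18 at 6 h and 3.998 at 24 h (difference 3.82, SE 0.50, adjusted p 0.000234), KIF19 of 0.02 and 3.54, HEPACAM2 of 0.26 and 2.93 and NPTX1 of 0.75 and 4.62. BMP3 had an effect of 3.07 at 6 h and 3.02 at 24 h, a difference that was not called (-0.05, SE 0.28, adjusted p 0.925), nor was that of NKX2-2 (0.87, SE 0.61, adjusted p 0.35). Among the falls, TAGLN (-1.20 and -3.55), WNT2B (-1.84 and -4.25), AJAP1 (-1.55 and -3.72) and SNCAIP (-1.22 and -2.90) were deeper at 24 h. CCN2 (-5.70 and -3.02), CCN1 (-4.64 and -1.76) and ID3 (-3.96 and -2.82) were shallower, while ID1 (0.35, SE 0.28, adjusted p 0.414) and ANKRD1 (0.36, SE 0.37, adjusted p 0.534) showed no called difference. ACTB (-0.96 and -0.16) was also nearer its control at 24 h. No vehicle library of 6 h was used here, so the time in culture and the drug cannot be told apart in the effect at 6 h.

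**Figure D5:**
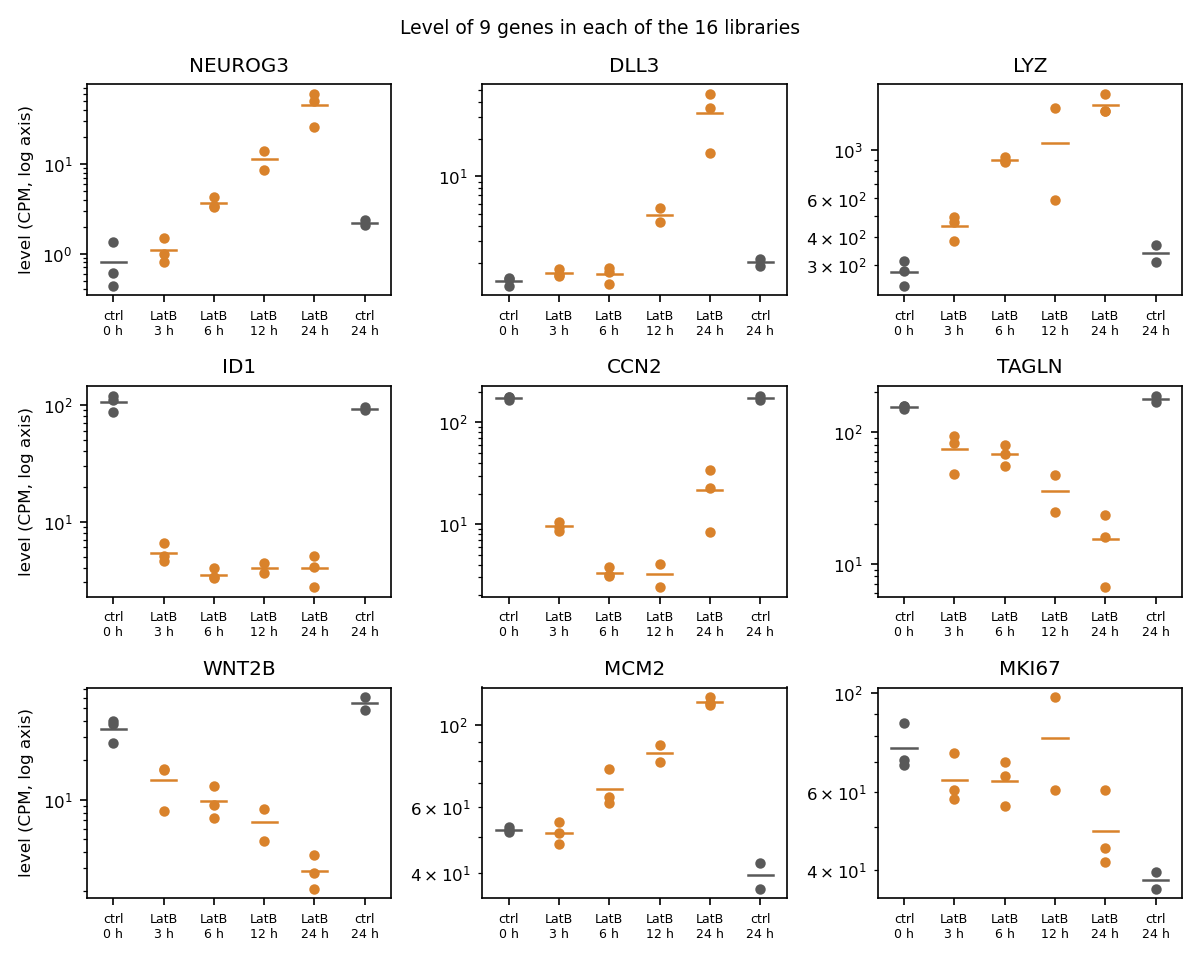
Level in CPM (log axis) of 9 genes in all 16 libraries by group, controls in grey and latrunculin B in orange, with each point a library and each bar the mean of its group. NEUROG3 climbs to 25.6 to 59.8 CPM at 24 h and DLL3 leaves its control level between 6 h and 24 h, ID1 stays low at all drug times, CCN2 lies higher at 24 h (8.32 to 33.8 CPM) than at 6 h, and MKI67 is lower in both 24 h groups than in the control at 0 h.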

How the data were processed

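Whole-culture polyadenylated RNA of 16 libraries was analysed, all from 1 cell line. Expected counts per transcript were deposited by the authors as salmon estimates, with Salmon 1.3.0, DESeq2 and hg38 named in the submitters' processing notes. The study's methods describe a STAR alignment with GENCODE 32, which is not how these files were made. A table of the authors' own comparisons, with fold changes, p-values and 16 columns of normalized values per sample, was not used. The use of strand is not given in the sources used here, so genes that overlap on opposite strands cannot be told apart.

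From the deposited expected counts, transcripts were matched to GENCODE 44 genes on GRCh38 by identifier (165533 of 177456, holding all but 2.92% to 3.17% of reads), summed per gene and rounded. Libraries held 23609727 to 33515398 estimated reads. Genes passing filterByExpr (16705 of 35810) were fitted over all 16 libraries in 6 groups with TMM scaling and the edgeR 4.0.16 quasi-likelihood test in R 4.3.3. Genes in the text with an adjusted p under 0.05 were called. CPM values use TMM-scaled library sizes. Groups follow the sample titles.

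The gene lists were chosen with earlier results of these data known, as was the comparison itself. Named were the 12 largest called rises and falls with at least 10 CPM in the higher group and no overlap, up to 6 called members with the largest change per list, marked key genes and the 3 largest changes per noncoding class. RFX6, LFNG, GLIS3, MYOF, TPM1, AGRN, BMP2, FZD8, RNF43, LEF1, MCM6 and UCHL1 were named after their values were seen. Counts were simulated for all 16 libraries and fitted in the same way. The test recovered 67.9% of 109 genes changed by 1 on the log2 scale and 82.4% of 91 changed by 2, over 16481 genes. In this simulation 5.10% of its calls were false (14.0% for DESeq2). Only those genes were changed there, against 40.8% of genes called in the data, so these rates may not describe the data. Alternatives were DESeq2 1.42.0, RLE scaling or none, a filter at 50 mean counts or none, a replicate block, a fit to these 5 libraries alone, the control at 0 h as reference and each library left out.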

Additional observations from a re-analysis of the deposited data

Results flagged for a closer look

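The results below are flagged since the effect of latrunculin B differed between 24 h and 6 h by a test of the difference itself, each effect taken against its own control (edgeR quasi-likelihood test, adjusted over all genes). The difference was called in 3754 of 16705 genes. In log2 units, effect at 24 h less effect at 6 h, it was 3.88 for NPTX1, 2.14 for NEUROG3, 1.75 for INSM1, 3.82 for DLL3, 1.93 for SERTAD4BP, 3.53 for KIF19, 2.21 for CHRNA3, 1.98 for PAX4, 2.46 for GJA4 and 2.67 for HEPACAM2, all genes that were higher at 24 h. Genes that lay lower still at 24 h were WNT2B at -2.41, SPTSSB at -1.36, AJAP1 at -2.17, NPPB at -1.43, TAGLN at -2.35 and SNCAIP at -1.68. Genes whose fall was smaller at 24 h were CCN2 at 2.68, CCN1 at 2.87, ID3 at 1.14, ACTB at 0.80, ACTG1 at 0.41 and VCL at 0.47. SRF had a difference of 0.65, from an effect of -0.47 at 6 h to 0.18 at 24 h. PDK4 had -1.65, from 3.49 at 6 h to 1.84 at 24 h. Of 37 genes examined, 24 passed the test, 17 of them above 0 and 7 below. Of the 37, 24 had been chosen for their large effect at 24 h, which favours a larger effect at 24 h than at 6 h. The control at 6 h is the control at 0 h, so time in culture and drug cannot be told apart in these differences.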

How the results depend on the processing

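With 2 control libraries the counts rest on both. Leaving out 1 library gave 4034 to 6424 called genes against 6809, with 2151 to 3485 higher and 1883 to 2939 lower, the lowest values without control replicate 1. For the difference of effects it gave 2333 to 3675 against 3754, with 1044 to 1888 positive and 1286 to 1787 negative. A stricter adjusted p under 0.01 left 4484 genes, 2032 of them lower, and a log2 change of at least 1 left 1213, 451 higher and 762 lower. DESeq2 called 6663 genes, RLE scaling 6797, no scaling 6931, a fit without the low-count filter 5964, a filter at 50 mean counts 6435 and these 5 libraries alone 6322. No scaling gave 4365 differences of effects, 3156 positive and 1209 negative. With the control at 0 h as reference 7091 genes were called, 5714 of them in the same direction as before and 7 in the opposite one. Under that reference the log2 fold change turned for CA2 (0.43), VCAN (-0.0018), RRM2 (-0.44), CDCA5 (-0.28), KIFC1 (-0.58), ANLN (-0.16), CENPF (-0.0469), CDK1 (-0.80), MKI67 (-0.61) and TOP2A (-0.65), and the cause was not tested. With the replicate number as a block 6005 genes were called (3259 higher, 2746 lower) and 3149 differences of effects. Deviations of same-numbered libraries from their group means correlated at 0.0592 and -0.0121. With 2 controls the deviation of 1 mirrors that of the other, so these values cannot decide whether libraries were paired. The labels give no pairing, and the numbers were not taken as pairs. Of 303 called named genes 213 kept call and direction under every alternative. The others lost the call, the direction or both under at least 1. TCP1 and SOX2 lost their call in 3 alternatives, SYT4, PLIN2 and VEGFA in 2, and RBMS3, COL4A4, ACTG1, HSPA5, MT-CO1 and WASH5P in 1. Of 65 not called, 31 were called under at least 1. Depth of the 5 compared libraries ran from 28745365 to 32224335 reads, and genes under 1 CPM rest on few reads.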

Other observations

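Outside every gene list, 32 genes reached 200 CPM in the higher group with a called log2 change of at least 1. Lack of overlap between the groups was also required of them. Of these, 7 were higher and 25 lower, and they were singled out after their values were seen. Among the rises, SMOC2, a secreted calcium-binding matrix protein, went from 93.7 and 96.8 CPM to 290.2, 364 and 359 CPM with latrunculin B (1.83, SE 0.12, adjusted p 4.43e-07). RELN, the extracellular guidance protein reelin, went from 110.4 and 124 CPM to 395, 282 and 299 CPM (1.47, SE 0.23), and ANGPT2, an angiopoietin, from 68.7 and 73.4 CPM to 154, 224 and 225 CPM (1.499, SE 0.23). CGA, the common alpha chain of the glycoprotein hormones, went from 213 and 209 CPM to 470.1, 415 and 454 CPM (1.08, SE 0.19). That all drug libraries lay above both controls in these genes was a condition of the choice.

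Among the falls, AHNAK, which encodes a very large scaffold at the plasma membrane, went from 492 and 462 CPM to 157, 96.9 and 113 CPM (-1.96, SE 0.30, adjusted p 0.000203), and its partners ANXA2, an annexin, from 882 and 946 CPM to 322, 267 and 304 CPM (-1.62, SE 0.14) and S100A10 from 223 and 219.9 CPM to 121, 86.7 and 99.6 CPM (-1.11, SE 0.13). Each was lowest in replicate 2 of the drug group. The adhesion receptor gene ADGRG6 went from 1103 and 1149 CPM to 528, 453 and 469 CPM (-1.22, SE 0.07) and PLXNA1, a semaphorin receptor, from 672 and 726 CPM to 294, 234 and 273 CPM (-1.39, SE 0.11). LIFR, the receptor for leukaemia inhibitory factor, went from 271 and 287 CPM to 131, 120.3 and 128 CPM (-1.14, SE 0.07). Lack of overlap in all of these was likewise a condition of the choice. In ARGLU1, PNISR, GOLGA8A, GOLGA8B, LENG8, WSB1 and MAPK8IP3, which also fell, control replicate 1 lay above control replicate 2, for example at 356 and 256 CPM in PNISR against 123.3, 125 and 116 CPM with the drug. LENG8 has a copy on an alternate sequence.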
